A study of Mus musculus with 4 samples.

Results

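Immediate early genes are switched on within minutes of a stimulus, without new protein synthesis, and many of them code for transcription factors. ERK and other MAP kinases, the serum response factor SRF with its ELK partners, and CREB drive their transcription, and the first wave includes its own brakes, such as phosphatases that shut off the kinases and proteins that destroy the mRNAs. In epithelial tissue they follow growth factors and injury, and they also respond to the enzymes, warming and sorting used to make single cells. The 34 genes described here were taken by symbol from a list of immediate early transcription and feedback genes, and each matched 1 of the 34615 gene rows in the count tables.

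The cells were GFP+ basal cells (CD24+ CD49f high) of the mouse mammary gland, the outer layer, which contracts to eject milk and includes stem-like cells. WT cells were WT;RosamTmG/mTmG and KO cells were miR-205fl/fl;RosamTmG/mTmG, and both were treated with an adenovirus carrying Cre, which turns the reporter from red to green and, in KO, deletes the floxed microRNA. Grafts were placed in SCID-Beige hosts of 3 weeks of age, and after 8 weeks cells were isolated from pooled outgrowths, for which the design text gives the number 40 without saying whether this is per genotype. Each genotype had 2 libraries. Counts in genes came to 53067076 and 57650462 for WT and to 60030932 and 47953972 for KO. The sources used here do not say whether replicates came from separate pools, so the spread that the p-values measure, that of these 4 libraries, may be technical. GFP marks cells that met Cre, and the loss of the microRNA itself was not analysed here. The host, which lacks mature T and B cells, supplied the stroma, vessels and myeloid cells around the graft.

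KO replicate 2 stood apart from the other libraries over all genes. It had a count in 12679 genes, against 18027 to 18897 in the other libraries, and its log2 CPM correlated at 0.826 to 0.842 across genes with the others, which correlated at 0.926 to 0.949 among themselves. Values of a pair are given in the order of replicates 1 and 2. Basal markers were present in every library, but in KO replicate 2, 4 of the 9 lay above and 5 below the WT pair. Acta2, smooth muscle actin, stood at 2493 and 2331 TMM-scaled CPM (a count relative to the size of its library) in the WT pair, against 3707 and 2264 CPM in the KO pair, and Itga6, which codes for the sorted CD49f, at 2213 and 2021 CPM in the WT pair, against 2498 and 2637 CPM in the KO pair. Singled out after their values were seen, the cadherin gene Cdh3 stood at 148 CPM, Cnn1 (calponin) at 122 CPM and Myh11 (smooth muscle myosin) at 1228 CPM in KO replicate 2, against at least 274, 214 and 1644 CPM in each other library. Col17a1, a hemidesmosome collagen chosen in the same way, was below WT in both KO libraries. It stood at 1265 and 1197 CPM in the WT pair, against 1025 and 961 CPM in the KO pair. The 4 markers above WT in KO replicate 2 were Itga6, Krt5, Trp63 and Oxtr. Krt5 stood at 1219 CPM in each WT library, against 1773 and 1512 CPM in the KO pair. Trp63 stood at 1049 and 903.5 CPM in the WT pair, against 901 and 1309 CPM in the KO pair. Oxtr stood at 165.2 and 104 CPM in the WT pair, against 165.4 and 333 CPM in the KO pair.

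Because miR-205 was the deleted gene, its mature strand and the only match to its full seed found among the 34 genes are shown. In each gene the 3′ UTR of 1 transcript, that with the longest coding part, was searched. Shorter matches and other UTRs were not searched. The capitals in the microRNA mark its seed (bases 2 to 8), and those in the site mark the bases that pair with it. Both are written 5′ to 3′, the microRNA from RefSeq (GRCm38.p6, chr1:193507503-193507524, minus strand) and the site from a GENCODE transcript.
mmu-miR-205-5p: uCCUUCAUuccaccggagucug
Atf3 3′ UTR site: aacgtcacacaATGAAGGcacaaagtcca
The match, a 7mer-m8, began at base 800 of the 1186 bases of the Atf3 3′ UTR. It was present in 1 of 34 members (2.94%), against 10.7% of 12413 other tested genes with an annotated 3′ UTR. A match is a description of letters and not a shown target.

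Promoter stretches were read for the motifs of the 3 main inputs, because CREB binds the CRE (TGACGTCA), AP-1 binds the TRE (TGACTCA) and SRF binds the CArG box. Both strands were searched in promoter windows of 300 bases around each start, and 27 of the 34 genes had 1 or more of the 38 member promoters in RefSeq (GRCm38.p6). The CRE was in 3 of 38 member promoters (7.89%), against 1.79% of all 32851. The CArG box was in 5 of 38 (13.2%), against 1.63%, but 4 of these 5 were alternative starts of Egr2. The TRE was in 0 of 38, against 5.20% of all. Alternative starts of a gene overlap and are not independent. The stretches below carry the motif in capitals, are written 5′ to 3′ on the strand of the gene, and are shown because the genes that share these letters had unlike values in the libraries.
Dusp1 CRE, chr17:26508582-26508641, minus strand: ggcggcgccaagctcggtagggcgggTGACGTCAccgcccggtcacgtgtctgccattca
Btg2 CRE, chr1:134079288-134079347, minus strand: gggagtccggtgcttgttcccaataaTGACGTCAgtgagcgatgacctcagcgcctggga
Maff CRE, chr15:79347465-79347524, plus strand: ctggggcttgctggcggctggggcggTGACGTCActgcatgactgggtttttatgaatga
Zfp36 CArG, chr7:28379251-28379312, minus strand: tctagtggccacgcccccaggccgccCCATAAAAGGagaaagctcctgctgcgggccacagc
Egr2 CArG, chr10:67537771-67537832, plus strand: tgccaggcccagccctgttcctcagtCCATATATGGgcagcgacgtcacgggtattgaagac

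Across the 34 genes, no difference between KO and WT passed the test, and the most visible feature was the distance of KO replicate 2 from the other 3 libraries. All 34 passed the filter on low counts. In the edgeR quasi-likelihood test 0 of 34 had an adjusted p under 0.05, beside 0% of the 15364 genes tested, and 0 of 34 had an unadjusted p under 0.05 (147 of all tested genes did). DESeq2 and limma voom also called 0 of the 34. Fitted log2 fold changes were positive in 23 members (67.6%) and the median was 0.15. Over all tested genes 42.8% were positive with a median of -0.14, and over the 5728 tested genes at a mean of 20 CPM or more, where 29 of the 34 lie, 59.3% were positive with a median of 0.11. With total counts only as the scaling, 18 of 34 members were positive and the median was 0.01, while the median of all tested genes moved to -0.24.

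The 2 KO libraries lay both above the 2 WT libraries in 8 members (Fos, Fosl2, Junb, Jund, Egr1, Atf3, Dusp1 and Sgk1), where 13.2% of all tested genes did so. They lay both below in 1 member, Nr4a1, where 19.2% of all tested genes did so. The remaining 25 members overlapped between genotypes. The background depended on abundance. At a mean of 20 CPM or more, 1229 of the 5728 tested genes lay above and 721 below. Of the 29 members at that level, 7 lay above, a share near that background, and 1 lay below. With upper quartile scaling 7 members lay above and 2 below, and with total counts only 7 above and 3 below: Sgk1 left the first group under both, Btg1 joined Nr4a1 below under both, and Zfp36 did so with total counts. Summed over the 34 genes, expression stood at 9502 and 10509 CPM in the WT pair, against 10564 and 13653 CPM in the KO pair. The difference of 2103 CPM had an exact permutation p of 0.33 (two-sided), the smallest that 2 libraries against 2 can give. It was 1141 CPM with upper quartile scaling, where KO replicate 1 no longer lay above both WT libraries (exact permutation p of 0.667), and 1002 CPM with total counts only (exact permutation p of 0.33). With TMM scaling KO replicate 1 lay next to WT replicate 2, and KO replicate 2 was the library away from the rest.

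**Figure D1:**
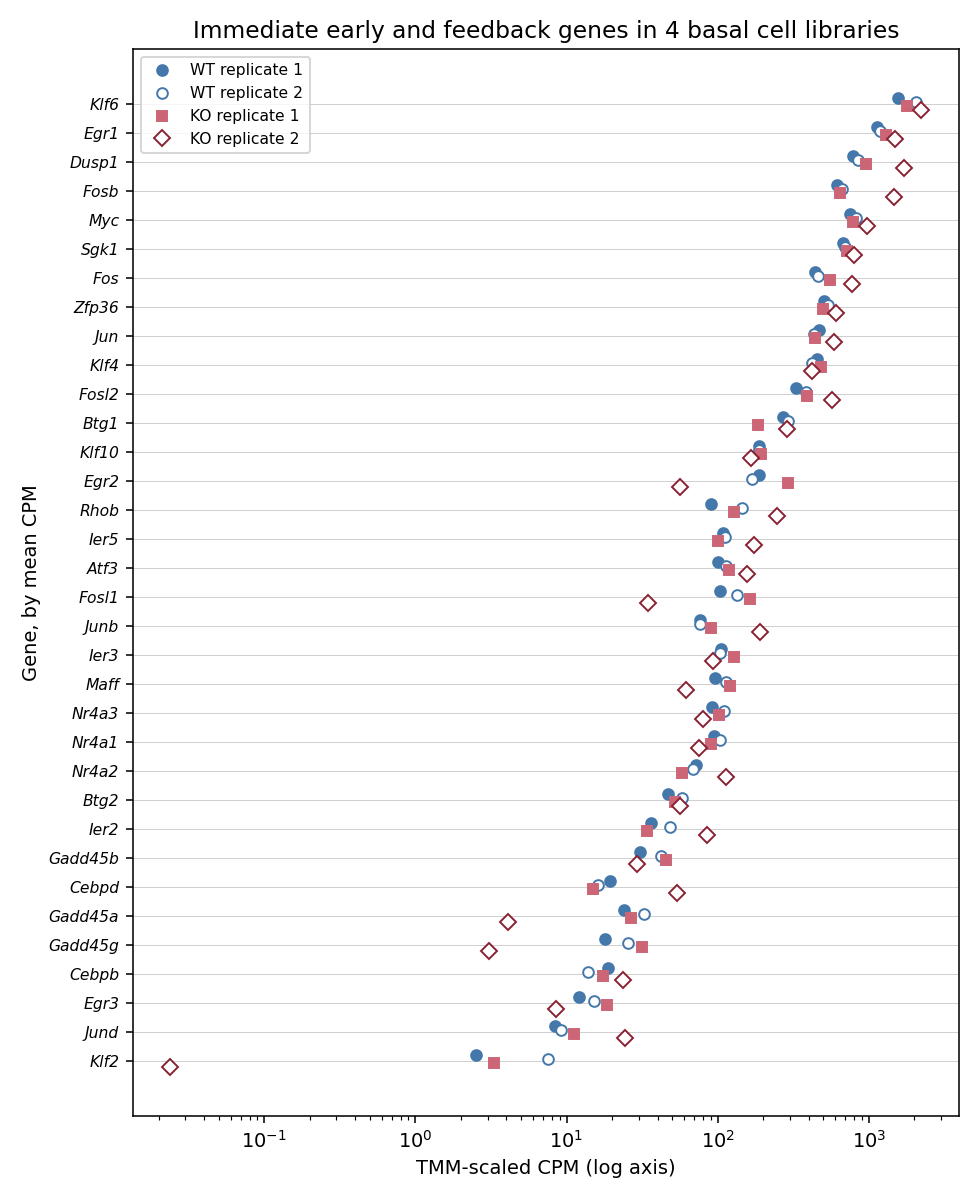
TMM-scaled CPM of the 34 genes (log axis) in each of the 4 libraries, ordered by their mean. Circles are WT, the filled square is KO replicate 1 and the open diamond KO replicate 2, which stands away from the rest for Fosb, Dusp1, Egr2, Fosl1, Gadd45a, Gadd45g and Klf2. Points of a gene are set slightly apart in height only to keep them visible.

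Fos proteins pair with Jun proteins to form AP-1, the transcription factor most closely tied to the early response. Fos, the founding member, stood at 437 and 462 CPM in the WT pair, against 555 and 775 CPM in the KO pair, a log2 fold change of 0.57 ± 0.23 (SE) with an unadjusted p of 0.0588, the smallest among the 34, and an adjusted p of 0.999 in the edgeR fit. Both KO libraries were above both WT libraries. Fosb, a close paralog, stood at 617 and 666 CPM in the WT pair, against 643 and 1469 CPM in KO replicates 1 and 2, so only the last library was away from the rest. Fosl2, which codes for FRA-2, stood at 330 and 381 CPM in the WT pair, against 387 and 572 CPM in the KO pair. Fosl1, which codes for FRA-1, a subunit that itself depends on AP-1, parted the KO libraries: it stood at 104 and 134 CPM in the WT pair, against 162 and 34.3 CPM in KO replicates 1 and 2. Per kilobase of exon, Fos made 50.2% and 48.1% of the Fos family level in WT and 51.4% in each KO library. Over the same denominator Fosl1 made 13.8% and 16.1% in the WT pair, against 17.4% and 2.63% in KO replicates 1 and 2.

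Among the Jun genes the main subunit differed least. Jun stood at 466 and 433 CPM in the WT pair, against 442 and 591 CPM in the KO pair, and the groups overlapped. Junb, which opposes Jun on many targets, stood at 76.6 and 76.8 CPM in the WT pair, against 89.8 and 189 CPM in KO replicates 1 and 2 (log2 fold change 0.86 ± 0.41 SE). Jund, the subunit that resting cells usually hold, was low here at 8.39 and 9.13 CPM in the WT pair, against 11.3 and 24.4 CPM in the KO pair. Both KO libraries were above WT for Junb and Jund, with KO replicate 2 far from its partner. Jun made 79.2% and 77.8% of the Jun family level per kilobase in the WT pair, against 75.2% and 65.6% in KO replicates 1 and 2.

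Other leucine zipper factors of the early response were split. Atf3 is a stress-induced partner of Jun proteins and the one member with a full miR-205 seed match in the UTR searched. It stood at 99.98 and 113 CPM in the WT pair, against 118 and 157 CPM in the KO pair. Its KO libraries were above WT by a log2 fold change of 0.37 ± 0.27 (SE, unadjusted p of 0.224 in the edgeR test), and by 0.16 without KO replicate 2. Maff, a small Maf protein without a transactivation domain, stood at 95.7 and 113 CPM in the WT pair, against 120 and 62.0 CPM in KO replicates 1 and 2. Cebpd, a C/EBP factor of the acute phase, stood at 19.3 and 16.1 CPM in the WT pair, against 14.9 and 53.4 CPM in KO replicates 1 and 2, the widest upward distance of that library. Cebpb stood between 13.9 and 23.7 CPM in the 4 libraries, which overlapped.

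The EGR zinc-finger factors are direct targets of SRF and ELK. Egr1 was the most abundant of them by far and nearly even, at 1132 and 1182 CPM in the WT pair, against 1291 and 1492 CPM in the KO pair (log2 fold change 0.27 ± 0.18 SE, and 0.16 without KO replicate 2). Egr2, whose promoter holds the CArG box shown, stood at 187 and 169 CPM in the WT pair, against 290 and 56.2 CPM in KO replicates 1 and 2. The KO libraries of Egr2 thus lay on either side of WT. Egr3 lay in the same order at a lower level, at 12.2 and 15.1 CPM in the WT pair, against 18.5 and 8.56 CPM in KO replicates 1 and 2. The fitted log2 fold changes of Egr2 and Egr3, -0.04 ± 0.74 and -0.01 ± 0.71 (SE), average over these opposite distances.

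NR4A genes code for orphan nuclear receptors that act without a known ligand in cells. Nr4a1 had both KO libraries below both WT libraries under each of the 3 scalings, and with TMM scaling it was the one member to do so, at 95.1 and 103 CPM in the WT pair, against 90.7 and 74.8 CPM in the KO pair (log2 fold change -0.26 ± 0.27 SE, unadjusted p of 0.371 in the edgeR test, and -0.13 without KO replicate 2). Nr4a2 stood at 72.3 and 68.8 CPM in the WT pair, against 57.6 and 114 CPM in KO replicates 1 and 2, on opposite sides of WT. Nr4a3 ran from 79.5 to 110 CPM with overlap.

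Of the Krüppel-like factors and Myc, which link early signals to growth and differentiation, the abundant ones kept close to WT. Klf6 had the highest level per kilobase of the 34 genes, a mean of 435 CPM per kilobase, followed by Dusp1 at 324, Myc at 307, Egr1 at 284 and Fos at 237. In CPM, Klf6 stood at 1565 and 2063 in WT and 1788 and 2226 in KO, so the WT libraries were further apart than the genotype means. Klf4, a factor of epithelial differentiation, stood at 453 and 424 CPM in the WT pair, against 479 and 422 CPM in the KO pair. Klf10, induced by TGF-beta, ran from 165 to 194 CPM. Myc stood at 752 and 826 CPM in the WT pair, against 785 and 976 CPM in the KO pair. Klf4, Klf6, Klf10 and Myc overlapped between genotypes. Klf2, known best from endothelial cells, was the rarest member, with 142 and 451 counts in the WT pair, against 208 and 1 in KO replicates 1 and 2. Markers of endothelial cells (7 genes) summed to 91.5 and 173 CPM in the WT pair, against 136 and 72.5 CPM in KO replicates 1 and 2, a sum for which WT replicate 1 and KO replicate 2 were close, and 5 of the 7 were below the WT pair in KO replicate 2. The leading gene Cdh5 stood at 42.0 and 90.0 CPM in the WT pair, against 83.1 and 42.1 CPM in the KO pair, and Erg at 16.8 and 35.7 CPM in the WT pair, against 17.4 and 14.5 CPM in the KO pair. Kdr, singled out after its values were seen, had 2 counts in KO replicate 2 against 611 to 773 elsewhere. Their part in the Klf2 values was not tested, and in sorted cells measured in bulk, fewer cells of a type and less RNA per cell cannot be told apart.

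The IER genes code for small early-response proteins. Ier2 stood at 36.2 and 48.0 CPM in the WT pair, against 33.9 and 84.9 CPM in KO replicates 1 and 2. Ier5, which activates the heat shock factor HSF1, stood at 109 and 112 CPM in the WT pair, against 99.9 and 173 CPM in KO replicates 1 and 2. Both had KO replicate 1 below and KO replicate 2 above the WT pair. Ier3, a survival factor downstream of ERK and NF-kappaB, was ordered the other way, at 104 CPM in each WT library, against 128 and 93.2 CPM in KO replicates 1 and 2.

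The feedback genes end the response. Dusp1, a phosphatase that switches off MAP kinases and carries the CRE shown, stood at 780 and 850 CPM in the WT pair, against 962 and 1704 CPM in the KO pair, a log2 fold change of 0.71 ± 0.31 (SE, unadjusted p of 0.0713 and adjusted p of 0.999 in the edgeR fit). Its KO libraries were both above WT, and the distance between them was wider than that of KO replicate 1 from WT. Zfp36, which codes for tristetraprolin and destroys AU-rich mRNAs, was even, at 501 and 537 CPM in the WT pair, against 497 and 602 CPM in the KO pair. Btg1, an antiproliferative cofactor of mRNA deadenylation, stood at 269 and 290 CPM in the WT pair, against 186 and 289 CPM in KO replicates 1 and 2. It was the one member whose larger distance from WT lay in KO replicate 1 with KO replicate 2 inside the WT range. Its relative Btg2, which also holds a CRE, ran from 47.2 to 58.3 CPM, with both KO libraries inside the WT range. So the 3 CRE promoters belonged to a gene at 1704 CPM in KO replicate 2 against 780 to 962 CPM elsewhere (Dusp1), to one inside the WT range in both KO libraries (Btg2) and to one at its lowest there (Maff).

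GADD45 proteins bind stress kinases and cell cycle regulators and respond to DNA damage and growth arrest. Gadd45a stood at 24.2 and 32.5 CPM in the WT pair, against 26.8 and 4.08 CPM in KO replicates 1 and 2. Gadd45g stood at 17.9 and 25.3 CPM in the WT pair, against 31.3 and 3.09 CPM in KO replicates 1 and 2. These are the widest downward distances among members with more than 1 count there (170 and 129 counts). Gadd45b, an early target of TGF-beta and NF-kappaB, stood at 30.6 and 42.3 CPM in the WT pair, against 45.1 and 29.3 CPM in the KO pair. Each of the GADD45 genes overlapped between genotypes.

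Among the members, 2 act in the cytoplasm. Rhob, an early-induced small GTPase of endosomes and the actin skeleton, stood at 90.0 and 146 CPM in the WT pair, against 129 and 248 CPM in KO replicates 1 and 2. Sgk1, a kinase induced by serum and glucocorticoid, was among the most even, at 669 and 691 CPM in the WT pair, against 714 and 801 CPM in the KO pair, with both KO libraries above WT in this scaling by a log2 fold change of 0.16 ± 0.18 (SE), and by 0.07 without KO replicate 2.

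Set library by library, KO replicate 1 was close to WT and KO replicate 2 was not. Differences here are of log2(CPM + 0.5), against the mean of the WT libraries. In KO replicate 1, 0 of 34 members were 2-fold or more from WT, where 6.31% of all tested genes and 0.576% of those at 20 CPM or more were. In KO replicate 2, 12 of 34 were, 7 upward (Fosb, Junb, Jund, Ier2, Dusp1, Cebpd and Rhob) and 5 downward (Fosl1, Egr2, Klf2, Gadd45a and Gadd45g). These 12 are read against 47.4% of all tested genes. The upward count holds for TMM scaling only. Fosb and Dusp1 are among the members with 3 or more exons, whose largest upward difference was 1.20 with TMM. It was 0.97 with upper quartile scaling and 0.93 with total counts, both under 2-fold. At 20 CPM or more, 9 of the 29 members were 2-fold or more away, near the 28.3% of all tested genes at that level. Between the WT libraries 0 of the 29 were 2-fold apart, against 2.25%. The median absolute difference over the 34 genes was 0.16 for KO replicate 1, 0.64 for KO replicate 2 and 0.14 between the WT libraries, and over tested genes at 20 CPM or more it was 0.17, 0.59 and 0.20. KO replicate 2 was thus the library furthest from WT for the members and for other genes at that level.

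The KO libraries often lay on different sides of WT. Both KO libraries lay outside the WT range in 23 members, on the same side in 9 and on opposite sides in 14. The same side held for 26.5% of members and 32.4% of all tested genes. The share of all tested genes on opposite sides was not counted, so the 14 cannot be called particular to the members. In 9 of these 14, among them Fosl1, Egr2, Maff and Gadd45g, KO replicate 1 was above and KO replicate 2 below WT, and in 5 (Ier2, Ier5, Nr4a2, Zfp36 and Cebpd) it was the reverse. The distance between the KO libraries exceeded the distance of their mean from WT in 32 of 34 members, and in 77.8% of all tested genes. Without KO replicate 1, which sets KO replicate 2 alone against WT, 21 of 34 members had a positive log2 fold change. The median was 0.26 for the members and -0.71 for all tested genes. This background depended on abundance. At 20 CPM or more, the median difference of KO replicate 2 from WT was 0.31 for members and 0.18 for all tested genes. Without KO replicate 2, log2 fold changes were 0.31 for Fos, 0.36 for Jund, 0.24 for Dusp1, 0.23 for Junb, 0.12 for Fosl2 and 0.01 for Fosb. These fits take a genotype with 1 library to have the same spread as the remaining pair.

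**Figure D2:**
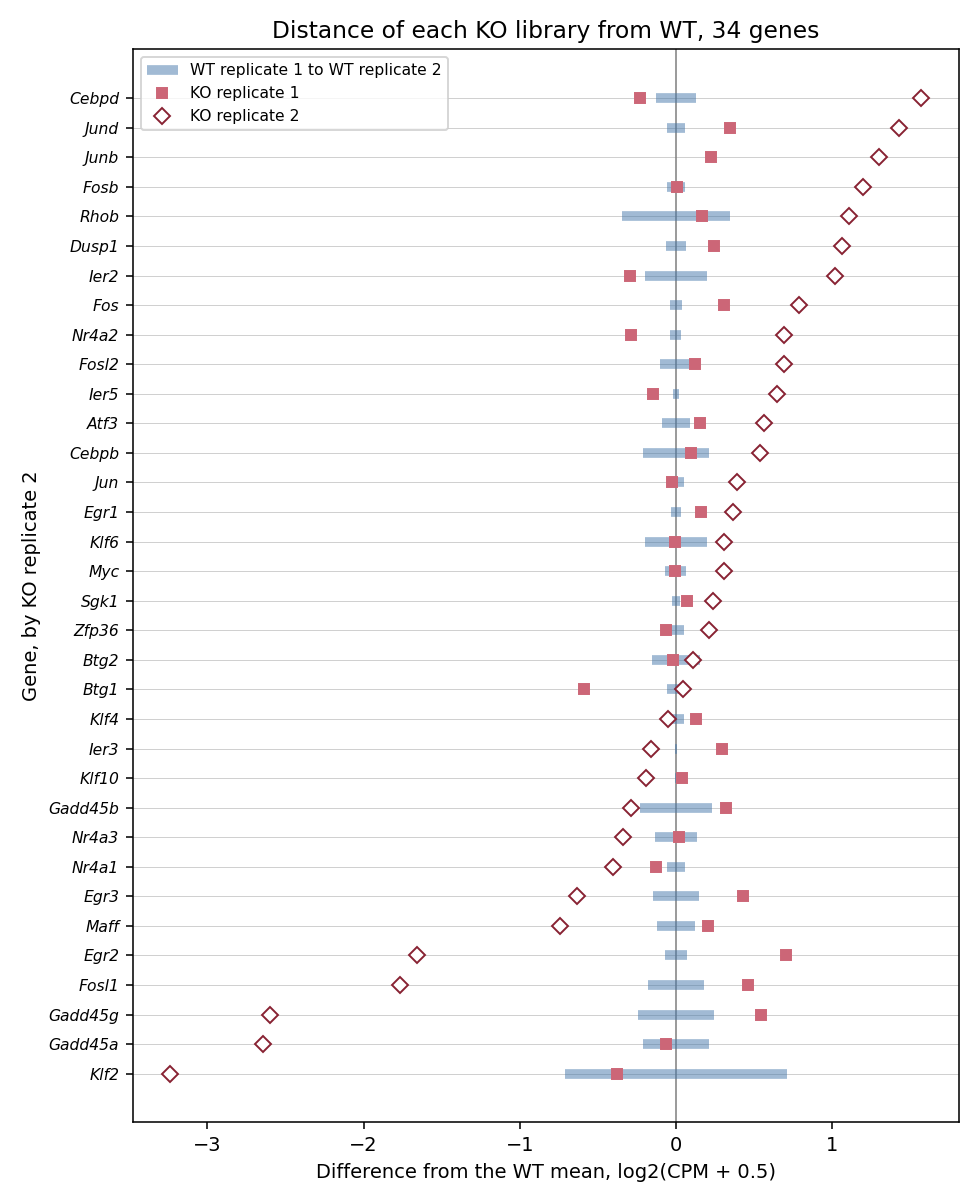
Difference of each KO library from the WT mean in log2(CPM + 0.5) for the 34 genes, ordered by KO replicate 2, with the spread of the WT pair as a bar around 0. KO replicate 1 (squares) stays within 1 of the WT mean for each gene, and KO replicate 2 (diamonds) runs from -3.24 for Klf2 to 1.57 for Cebpd.

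A feature that the list did not use, chosen after these values were seen and not tested, was the number of exons. In the annotated coding transcript with the longest coding part, 8 members have 1 exon (Jun, Junb, Jund, Ier2, Ier5, Cebpb, Cebpd and Rhob), 7 have 2 and 19 have 3 or more. All 8 single-exon members were above both WT libraries in KO replicate 2, by 0.39 to 1.57 with a median of 1.06. This held for 8 of 8 also with upper quartile scaling (median 0.84) and with total counts only (median 0.80). Of the 7 members with 2 exons, 2 were above and 3 below both WT libraries in KO replicate 2, and of the 19 with more, 9 were above and 10 below. In KO replicate 1 the single-exon members had a median of 0.04, with 2 above and 3 below both WT libraries.

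The same split was smaller among other genes and depended on abundance. Here genes are counted as higher in KO replicate 2 than the WT mean, a looser measure than above both WT libraries. On it, 8 of 8 single-exon members were higher, 4 of 7 with 2 exons and 9 of 19 with more. Of other protein-coding genes at 20 CPM or more, 75.8% of 62 single-exon genes were higher (median 0.43). This compares with 58.7% of 5237 genes with 3 or more exons (median 0.17). Over all abundances it was the other way round, with 36.4% of 354 single-exon genes higher (median -0.58) against 40.1% of 11693 (median -0.36). Several of the 8 are paralogs (the 3 Jun genes, the pair of C/EBP genes), and 2 of them, Jund and Cebpb, lie under 20 CPM. The median G+C content of the single-exon members was 58.5%, against 51.4% and 53.3% in the other classes. Across the 34 genes Spearman's rho of the KO replicate 2 difference was -0.36 with exon number, 0.11 with G+C content and 0.18 with transcript length, values that share 1 library and are given as a description.

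**Figure D3:**
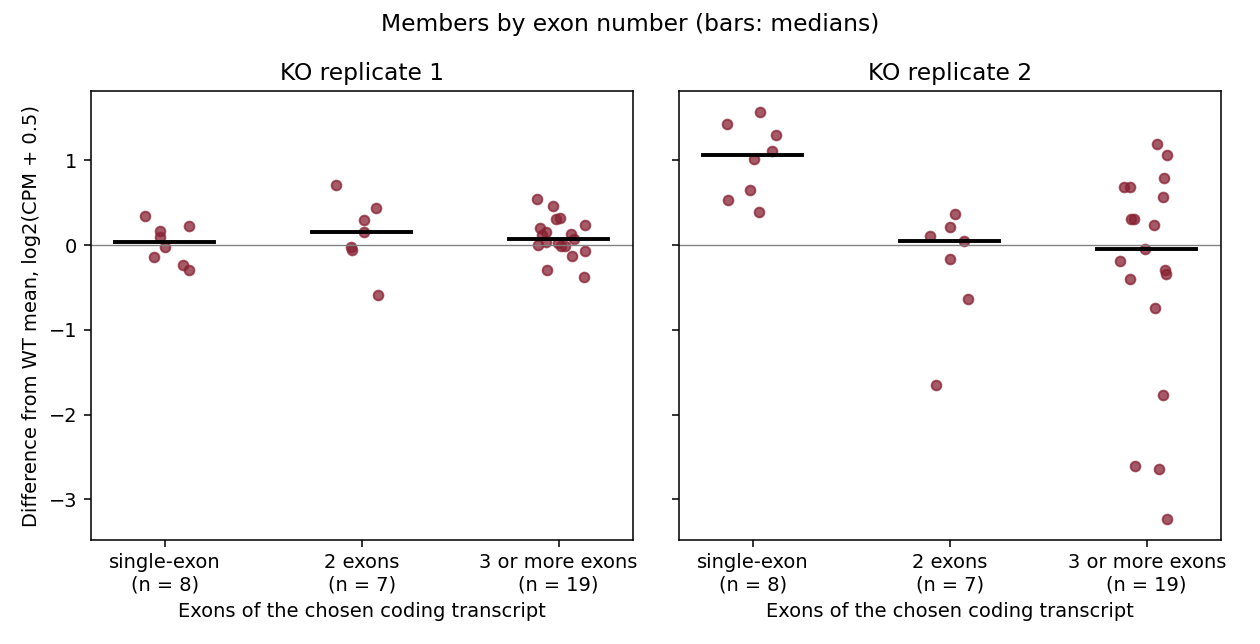
Difference of each KO library from the WT mean in log2(CPM + 0.5), for members grouped by exon number (points are genes, bars are medians). The 8 single-exon members all lie above 0 in KO replicate 2, with a median of 1.06, and on both sides of 0 in KO replicate 1. Points are spread sideways only to keep them visible.

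The signaling input to these genes was read from 24 kinases and factors, of which 22 matched a row and were tested. None passed (0 of 22), 13 were positive and the median log2 fold change was 0.06. Map2k1, the kinase MEK1 above ERK, stood at 80.7 and 71.0 CPM in the WT pair, against 92.2 and 271 CPM in KO replicates 1 and 2. Crtc2, a CREB coactivator, stood at 52.4 and 59.1 CPM in the WT pair, against 65.9 and 126 CPM in the KO pair. Atf1, a CREB relative, was at 260 CPM in KO replicate 1, within WT, and at 565 CPM in KO replicate 2. Mrtfb, an SRF coactivator listed as Mkl2, was below WT in both KO libraries, at 243 and 265 CPM in the WT pair, against 214 and 179 CPM in the KO pair.

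Early genes outside the list were read in the same way. Of 35 tested, 22 were positive, 0 passed, and the median was 0.19. Both KO libraries lay above WT in 7 and below in 6, beside 13.2% and 19.2% of all tested genes. At a mean of 20 CPM or more, they lay above in 1229 and below in 721 of the 5728 tested genes. Errfi1, which inhibits the EGF receptor, stood at 1302 and 1352 CPM in the WT pair, against 1941 and 1572 CPM in the KO pair, the highest in KO replicate 1. Dusp6, the phosphatase of ERK, stood at 324 and 359 CPM in the WT pair, against 412 and 543 CPM in the KO pair. Ccn1, a matricellular early gene, stood at 387 and 400 CPM in the WT pair, against 469 and 583 CPM in the KO pair. Sik1, a kinase induced by CREB, stood at 487 and 540 CPM in the WT pair, against 583 and 761 CPM in the KO pair. Their log2 fold changes ran from 0.39 to 0.48, with unadjusted p-values from 0.0824 to 0.133 in the edgeR test. Of 16 matched bZIP partners 13 were tested, 9 were positive and 0 passed. Atf4 stood at 444 and 462 CPM in the WT pair, against 507 and 632 CPM in the KO pair, and Atf2 at 269 and 278 CPM in the WT pair, against 281 and 350 CPM in the KO pair. Cebpa and Maf overlapped between genotypes.

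Heat shock and metallothionein genes, which also respond to handling, were set beside the members. Of 20 tested, 14 were positive, 0 passed and the median was 0.23. Their summed level was 9742 and 9414 CPM in the WT pair, against 11235 and 10174 CPM in the KO pair (exact permutation p of 0.33, two-sided, the smallest possible). The sum of this list was thus highest in KO replicate 1, and that of the members in KO replicate 2. The sum of this list weighs its most abundant genes most. In the KO pair these stood at 2359 and 1998 CPM (Hsp90ab1), 2101 and 1969 CPM (Hsp90aa1) and 1964 and 1567 CPM (Hspa8). Gene by gene, the median log2 difference from WT was 0.12 in KO replicate 1 and 0.16 in KO replicate 2. In KO replicate 1, 0 of the 20 were 2-fold or more from WT. In KO replicate 2, 7 were, 4 upward and 3 downward, beside 28.3% of tested genes at 20 CPM or more. The inducible chaperone Hspa1a stood at 33.3 and 34 CPM in the WT pair, against 38.8 and 146 CPM in KO replicates 1 and 2. Hspe1, a mitochondrial chaperonin, stood at 63.8 and 40.9 CPM in the WT pair, against 73.1 and 119 CPM in the KO pair. Hmox1, heme oxygenase, stood at 180 and 326 CPM in the WT pair, against 386 and 443 CPM in the KO pair. Hsf2, a heat shock factor, stood at 31.9 and 24.3 CPM in the WT pair, against 29.7 and 84.6 CPM in KO replicates 1 and 2. Chosen after their values were seen, the co-chaperones Hsph1 and Dnajb1 were lowest in the same library, at 124 and 43.1 CPM against 253 CPM or more and 62.0 CPM or more elsewhere. Hspa1a has a near-identical copy, Hspa1b, so the counts of each are uncertain. Hspa1b stood at 46.37 and 46.41 CPM in the WT pair, against 45.4 and 122 CPM in KO replicates 1 and 2. The part of handling in the values of the members was not tested.

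**Figure D4:**
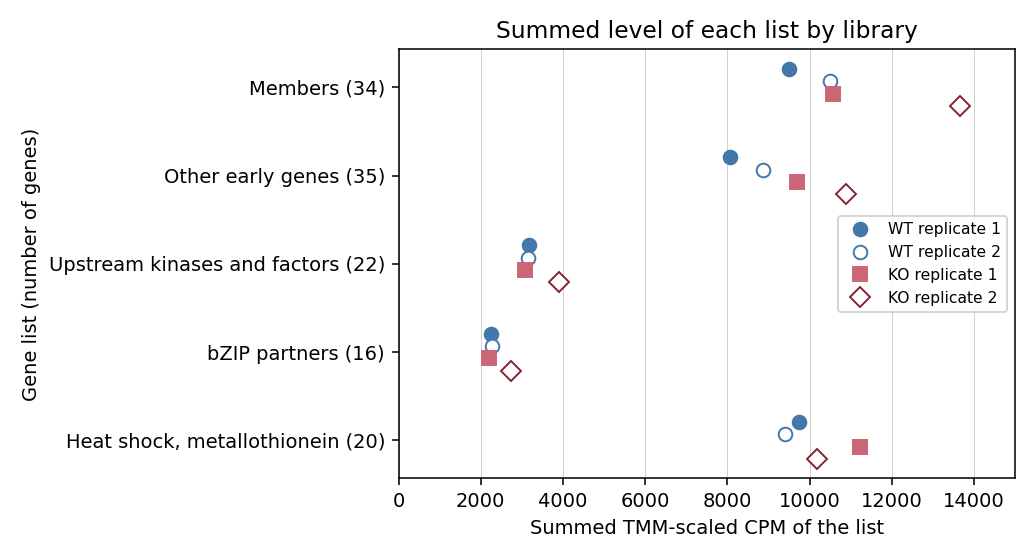
Summed TMM-scaled CPM (horizontal axis) of 5 gene lists, from the members to heat shock genes, in each library, with circles for WT, the square for KO replicate 1 and the diamond for KO replicate 2. The members sum to 13653 CPM in KO replicate 2 against 9502 to 10564 CPM elsewhere. The sum of the heat shock and metallothionein list, led by Hsp90ab1, Hsp90aa1 and Hspa8, is highest in KO replicate 1 at 11235 CPM.

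Markers of cells outside the gate also differed between libraries. Leukocyte markers (8 genes) summed to 67.3 and 150 CPM in the WT pair, against 98.3 and 319 CPM in KO replicates 1 and 2. Cd74 made most of it, at 289 CPM in KO replicate 2, while Ptprc stood at 25.02 CPM there against 2.69 to 3.33 CPM elsewhere. These markers, given by the side on which they lay, were split: in KO replicate 2, 3 of the 8 lay above the WT pair and 4 below. Those below were Csf1r at 0.168 CPM (1.80 to 3.92 CPM elsewhere), Lyz2 at 1.37 CPM (3.50 to 20.05 CPM), Cd79a at 0.024 CPM (0.408 to 0.908 CPM) and Itgam at 0.312 CPM (0.403 to 1.37 CPM). Fibroblast markers (7 genes) summed to 527 and 588 CPM in the WT pair, against 605 and 786 CPM in the KO pair, led by Fbn1 and Dcn, with 4 of the 7 above and 1 below the WT pair in KO replicate 2. Luminal markers (11 genes) summed to 670 and 1075 CPM in the WT pair, against 749 and 1305 CPM in the KO pair. The most abundant, Krt8 and Krt18, lay within the WT range in KO replicate 2, at 318 and 271 CPM. There 4 of the 11 were above the WT pair, namely Gata3 at 228 CPM, Prlr at 210 CPM, Aldh1a3 at 167 CPM and Foxa1 at 89.1 CPM, and 4 below, namely Kit at 1.44 CPM, Esr1 at 5.49 CPM, Cd14 at 6.88 CPM and Elf5. In KO replicate 2, 3418 of the 15364 tested genes had 0 counts. Defining markers at 0 counts there were Elf5 (luminal), Dpt (fibroblast) and Adgre1 (macrophage). Adgre1, which did not pass the filter on low counts, was at 0 also in WT replicate 1. Cd3e (T cell) was at 0 in KO replicate 1. The part of these cells in the values of the members was not tested.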

How the data were processed

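RNA of sorted basal cells was purified with PicoPure and amplified with NuGEN kits, per the labels' protocols. The authors deposited 1 table of whole-number read counts per gene for each library, and the submitters' processing notes name TopHat2 2.02, HTSeq and the builds NCBIM37/mm9. The sources used here give neither strand setting nor annotation release, and reads of overlapping genes cannot be told apart. Of 34615 gene IDs, 30082 were matched to GENCODE M21 symbols and held 98.6% of the counts. Reads in no gene were left out of library sizes and came to 57.6% to 61.5% by library. No mitochondrial row was present, and some listed genes, such as Krt14 and Mapk9, were not analysed here.

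Counts were fitted with edgeR 4.0.16 (R 4.3.3; filterByExpr, TMM, quasi-likelihood test, genotype alone), with Benjamini-Hochberg adjusted p under 0.05 over all tested genes. SE is the absolute log2 fold change over the square root of F. Levels are TMM-scaled CPM, and differences of single libraries use log2(CPM + 0.5). A floor of 3 counts is 0.0500 to 0.0626 CPM by library. Alternatives were DESeq2 1.42.0, limma 3.58.1 (voom), other scalings and filters, a replicate block and leaving out each library. The script was tested on simulated data with a smaller spread than that of these libraries, which does not measure its power here. Lengths, exon numbers and UTRs come from GENCODE M21, promoters and the microRNA from RefSeq. No coordinate was converted between builds.

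The members and lists were chosen with earlier results of these data known. Members with a mean of 20 CPM or more are given in every library or by range, and the rest by range or by library. Of each other list 4 genes are named, those of lowest p among genes with a mean of 5 CPM or more, and of each cell type list the 2 most abundant. Further cell type markers, and Hsph1, Dnajb1, Hsp90ab1, Hsp90aa1, Hspa8 and Hspa1b, were named after their values were seen.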

Additional observations from a re-analysis of the deposited data

How the results depend on the processing

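With 2 libraries a group, 1 of them far from the rest, the tests could detect large differences only. DESeq2 called 4 genes (3 higher, 1 lower) of all tested and 0 members. Leaving out each library in turn gave 0 to 5724 genes and 0 to 18 members called, both highest without KO replicate 1. Without WT replicate 1 or WT replicate 2, 5 genes were called. Across genes, the difference between replicates 1 and 2 in WT had a correlation of 0.0097 with that in KO. With KO replicate 2 far from the rest, this value cannot decide whether replicate numbers mark a pairing. The replicate block called 0 genes (79 at an unadjusted p under 0.05 in edgeR) and 0 members, with a median of 0.15. The median of the members was 0.03 with upper quartile scaling, 0.01 with total counts and 0.10 with a filter at a mean of 5 CPM, and ran from 0.08 to 0.26 when a library was left out. The summed difference was 1141 CPM with upper quartile scaling (exact permutation p of 0.667) and 1002 CPM with total counts (exact permutation p of 0.33).

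Log2 fold changes changed sign with upper quartile scaling for Ier3 (-0.008), Zfp36 (-0.039), Btg2 (-0.078), Klf4 (-0.063) and Gadd45b (-0.058). They did so with total counts for Ier3 (-0.021), Zfp36 (-0.057), Btg2 (-0.093), Klf4 (-0.079) and Gadd45b (-0.065), and at a mean of 5 CPM for Btg2 (-0.016), Klf4 (-0.010) and Gadd45b (-0.014). Sign changes when a library was left out numbered 4 without WT replicate 1, 2 without WT replicate 2, 4 without KO replicate 1 and 16 without KO replicate 2. The values ran over -0.588 to 0.043 for Btg1, -0.109 to 0.2 for Btg2, -0.243 to 1.589 for Cebpd, -1.67 to 0.707 for Egr2, -0.676 to 0.441 for Egr3, -1.796 to 0.455 for Fosl1, -0.318 to 0.311 for Gadd45b and -2.81 to 0.539 for Gadd45g. They ran over -0.310 to 1.007 for Ier2, -0.165 to 0.300 for Ier3, -0.143 to 0.643 for Ier5, -0.023 to 0.389 for Jun, -0.196 to 0.043 for Klf10, -0.057 to 0.132 for Klf4 and -0.042 to 0.360 for Klf6. They ran over -0.756 to 0.205 for Maff, -0.004 to 0.303 for Myc, -0.288 to 0.690 for Nr4a2, -0.349 to 0.016 for Nr4a3 and -0.059 to 0.210 for Zfp36. Without a change of sign, values ran over 0.309 to 0.782 for Fos, 0.006 to 1.191 for Fosb, 0.124 to 0.683 for Fosl2, 0.231 to 1.301 for Junb, 0.364 to 1.473 for Jund, 0.162 to 0.363 for Egr1, 0.157 to 0.556 for Atf3 and 0.243 to 1.06 for Dusp1. They ran over -0.412 to -0.126 for Nr4a1, 0.074 to 0.231 for Sgk1, 0.129 to 1.066 for Rhob, 0.085 to 0.558 for Cebpb, -2.803 to -0.079 for Gadd45a and -7.589 to -0.591 for Klf2. The cause was not tested.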
